A study of Mus musculus with 32 samples.

Results

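The 73 genes described here encode heat shock proteins and J-proteins, the chaperones that fold, hold and refold other proteins. They are the protein-coding rows whose symbol begins with Hspa, Hspb, Hspd, Hspe or Hsph and a digit, with Hsp90 or with Dnaj, or is Cryab, and make up 73 of 54838 genes listed and of 22026 protein-coding genes listed. By family they are 11 Hsp70 genes, 3 Hsp110 genes, 3 Hsp90 genes, the 2 subunit genes of the mitochondrial chaperonin, 8 small heat shock protein genes, 4 DNAJA, 13 DNAJB and 28 DNAJC genes, and Hspb11, which carries the symbol but encodes a subunit of the intraflagellar transport machinery. Total RNA had been sequenced from 3 leg muscles (gastrocnemius, quadriceps and tibialis) of male mice no older than 3 months. The mice were homozygous for the knock-in M743T in Gne, or wild type. Gne makes sialic acid through an enzyme with a pair of activities, and M743T occurs in patients with GNE myopathy. Knock-in animals were labelled as either sick or healthy, and the sources used here give no signs of sickness, strain or treatment. The 32 libraries comprise 3 sick knock-in, 3 healthy knock-in and 4 wild-type gastrocnemius libraries, and 3, 4 and 4 of these states in quadriceps and again in tibialis. The point mutation cannot be checked in a table of counts.

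Hsp70 proteins bind unfolded stretches of other proteins in a cycle of ATP hydrolysis. J-proteins start that cycle and bring in the client, and Hsp110 proteins end it by exchanging the nucleotide. Hsp90 acts late on kinases and receptors, the chaperonin folds proteins inside mitochondria, and small heat shock proteins hold unfolded proteins without using ATP. Muscle makes several small heat shock proteins in quantity, and mutations in CRYAB, HSPB8, DNAJB6 and the cochaperone BAG3 cause inherited muscle diseases in people. Stress such as heat activates heat shock factor 1, which binds alternating copies of a short repeat, the heat shock element, in front of inducible chaperone genes.

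Total counts ran from 7685164 to 42588233 per library, and the 73 genes took 0.537% to 1.26% of them. Levels are given as CPM, counts per 1000000 of the library total, with totals adjusted by TMM, a trimmed mean of log ratios between libraries. Of the 73 genes, 65 were tested in at least 1 muscle and 64 in all 3 muscles, and 8 were too low to test in any. Of those, 7 stayed under 10 counts in every library, namely Dnajb3, Dnajb7, Dnajb8, Dnajc5b, Dnajc5g, Dnajc22 and Hspb9. Fast glycolytic fibre genes summed to 118661 to 242766 CPM, so that every library holds fast skeletal muscle. In whole muscle, fewer cells of a type and less RNA per cell cannot be told apart. The sources state 4 mice per state, fewer than the libraries of a state, so libraries of different muscles share mice. Which libraries share a mouse is not stated, and p-values therefore measure only the spread between libraries. A result seen in several muscles is thus not an independent repeat.

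One number stood apart before any comparison of states. The wild-type libraries numbered 4 held far more mRNA of the stress-inducible chaperones than the other wild-type libraries in all 3 muscles. Hspa1b, which encodes inducible Hsp70, had 139, 269.5 and 18.7 CPM in wild-type replicate 4 of gastrocnemius, quadriceps and tibialis, whereas the other 9 wild-type libraries lay between 0.882 and 2.55 CPM. Hspa1a is a near-identical copy on chromosome 17, and reads of both copies may not be told apart. It had 53.6, 120.0 and 7.86 CPM in the same 3 libraries and at most 2.08 CPM in the other wild-type ones. Both genes were therefore higher in that library than in any other wild-type library of its muscle.

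The same 3 libraries led in Hsp90aa1, the inducible Hsp90, with 192, 266 and 86.97 CPM against 18.2 to 33.6 CPM in the other wild-type libraries. Hsph1, an Hsp110 gene, had 209.8, 269.5 and 108 CPM there and 51.1 to 109 CPM in the others, and was highest in replicate 4 among the wild-type libraries of each muscle. In quadriceps, wild-type replicate 4 was the highest of the 4 wild-type libraries for 44 of 65 tested members (67.7%), and for 34.4% of all genes tested. The corresponding shares were 46.9% of members and 27.1% of genes in gastrocnemius, and 46.9% and 22.1% in tibialis. Immediate early genes, which respond within minutes to handling and injury, summed to 532, 600.2 and 527 CPM in these 3 libraries and to 206 to 296 CPM in the other wild-type libraries. No gene of that list of 10 was at 0 in every library, and the part of handling in these levels was not tested.

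High inducible Hsp70 was not confined to wild-type replicate 4. In healthy knock-in quadriceps, replicates 3 and 4 had 59.3 and 21.9 CPM of Hspa1b, and replicates 1 and 2 had 2.70 and 2.18 CPM. In healthy knock-in tibialis, replicates 1 and 4 had 10.99 and 7.64 CPM of Hspa1b, and replicates 2 and 3 had 2.01 and 4.39 CPM. Hspa1a had 7.42 CPM in healthy tibialis replicate 1, near the 7.86 CPM of wild-type tibialis replicate 4. Hspa1b lay between 0.582 and 10.3 CPM in the 9 sick knock-in libraries. Calls between sick and wild-type mice that end without wild-type replicate 4 are given with both values. Changes that pass only without it are given without a test, since that library stood apart by the levels of these genes.

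**Figure D1:**
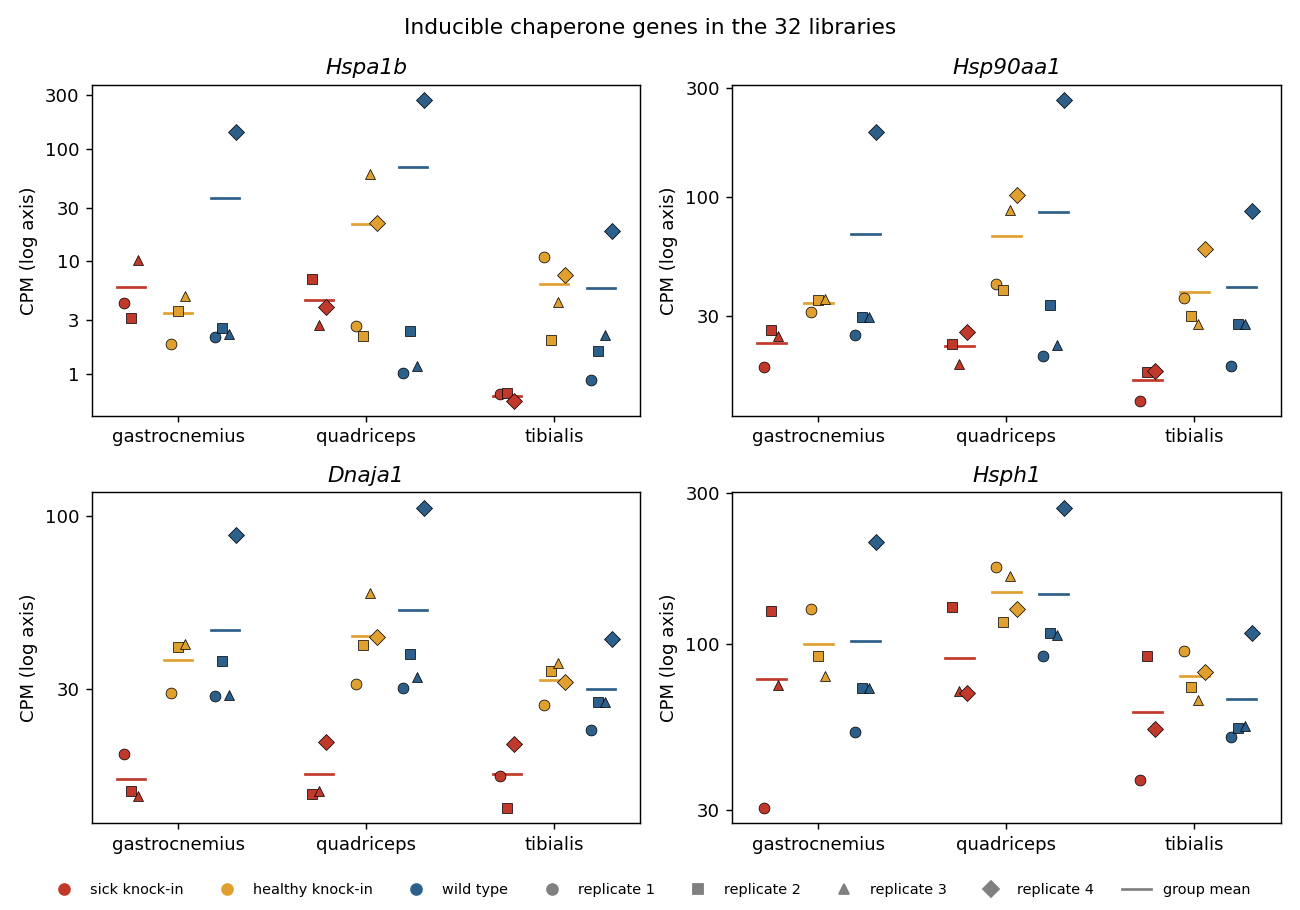
CPM on log axes of 4 stress-inducible chaperone genes in each of the 32 libraries, by muscle and state, with lines at the group means and symbols for the replicate numbers. Wild-type replicate 4, the blue diamond, is the highest library of Hspa1b, Hsp90aa1, Dnaja1 and Hsph1 in each muscle, and the 3 sick knock-in values of Dnaja1 lie below all healthy and wild-type ones.

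The promoters of these genes differ in whether they hold a heat shock element. RefSeq promoter sequence (GRCm38.p6, 250 bases before to 50 bases after a start) was at hand for 58 of the 73 members. Hsp90aa1, Hsp90ab1, Hspa8, Hspa9, Hspb2, Cryab and Dnajc5 are among those without it and enter no count of promoters. A pair of alternating units, GAANNTTC or TTCNNGAA, which read the same on both strands and can overlap each other, stood in 16 of the 58 (27.6%) and in 17.0% of 27025 genes with a promoter. A run of 3 alternating units stood in 4 of 58 members (6.9%) and in 0.7% of genes, and the 4 were Dnajb6, Hspd1, Hspe1 and Hsph1. The ERSE, the element bound under stress of the endoplasmic reticulum (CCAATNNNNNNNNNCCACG or its other strand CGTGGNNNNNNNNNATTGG), stood in 3 members (5.2%), Hspa5, Hsp90b1 and Dnajc3, and in 0.1% of genes. Shown next are the 150 bases before a start, 5′ to 3′ on the strand of the gene, for members on which the results turn. Capitals mark the heat shock pairs, and in Hspa5 the ERSE. The first pair shown is the promoters of the 2 inducible Hsp70 copies, chr17:34972157-34972306, minus strand and chr17:34959239-34959388, minus strand, which are identical at 149 of 150 bases.
Hspa1a: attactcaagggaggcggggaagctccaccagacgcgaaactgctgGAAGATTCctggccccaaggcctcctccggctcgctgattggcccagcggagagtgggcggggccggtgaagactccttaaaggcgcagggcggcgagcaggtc
Hspa1b: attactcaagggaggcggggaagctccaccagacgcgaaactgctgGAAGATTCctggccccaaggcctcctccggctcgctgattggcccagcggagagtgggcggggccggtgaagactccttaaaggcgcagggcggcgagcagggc
Dnaja1 (chr4:40722318-40722467, plus strand) is shown as the J-protein gene that fell in all 3 sick muscles, and Dnajb6 (chr5:29735748-29735897, plus strand) as one that rose in all 3. The start shown for Dnaja1 is 1 of 3 RefSeq starts, and the other 2 hold no such pair.
Dnaja1: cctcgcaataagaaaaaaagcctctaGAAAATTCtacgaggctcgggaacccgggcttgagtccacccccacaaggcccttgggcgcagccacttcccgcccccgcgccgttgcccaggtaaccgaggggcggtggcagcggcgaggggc
Dnajb6: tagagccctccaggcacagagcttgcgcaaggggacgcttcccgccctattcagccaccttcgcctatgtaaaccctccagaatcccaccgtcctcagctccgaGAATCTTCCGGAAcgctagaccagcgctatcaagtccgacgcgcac
Hspe1 (chr1:55087998-55088147, plus strand) shares its promoter with Hspd1, since the 2 genes are transcribed away from each other and overlap by 112 bases. Hspb1 (chr5:135887769-135887918, plus strand) and Dnaja4 (chr9:54699409-54699558, plus strand) each hold 2 separate pairs, although a second start of Dnaja4 holds none, and Hspa5 (chr2:34771940-34772089, plus strand) is a member of the endoplasmic reticulum that was not called.
Hspe1: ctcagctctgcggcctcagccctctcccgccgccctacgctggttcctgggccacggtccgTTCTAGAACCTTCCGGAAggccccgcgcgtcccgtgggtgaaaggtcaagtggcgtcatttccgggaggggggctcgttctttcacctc
Hspb1: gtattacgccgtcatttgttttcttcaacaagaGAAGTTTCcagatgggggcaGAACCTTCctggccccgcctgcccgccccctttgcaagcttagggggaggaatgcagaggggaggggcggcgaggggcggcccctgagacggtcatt
Dnaja4: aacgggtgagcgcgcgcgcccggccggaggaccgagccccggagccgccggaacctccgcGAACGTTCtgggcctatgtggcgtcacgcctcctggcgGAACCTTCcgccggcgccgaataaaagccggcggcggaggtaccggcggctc
Hspa5: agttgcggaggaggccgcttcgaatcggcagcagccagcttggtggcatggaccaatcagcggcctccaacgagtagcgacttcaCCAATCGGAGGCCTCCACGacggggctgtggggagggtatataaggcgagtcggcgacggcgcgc
Dnaja1 thus holds a heat shock pair before 1 of its starts and Dnajb6 before both of its starts. Of the 15 tested members whose promoters hold such a pair, 10 in gastrocnemius, 11 in quadriceps and 10 in tibialis were highest in wild-type replicate 4 among the wild-type libraries, and of the tested members whose promoters hold none these were 13 of 36, 23 of 37 and 10 of 36.

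The first comparison asks which chaperone genes differ between muscles of sick knock-in and wild-type mice. In gastrocnemius 4 of 64 members rose and 3 fell in the sick mice, where 8.22% of 14155 genes rose and 6.52% fell (limma, adjusted p under 0.05 over all genes tested). In quadriceps 9 of 65 rose and 6 fell, where 10.5% of 13799 genes rose and 7.49% fell. In tibialis 4 of 64 rose and 10 fell, where 8.44% of 14520 genes rose and 9.61% fell. The median log2 fold change of the members was -0.08, -0.05 and -0.25 in gastrocnemius, quadriceps and tibialis, beside -0.03, 0.00 and -0.05 for all genes tested. In all, 22 members were called in at least 1 muscle. Of the 9 that rose, 3 did so in all 3 muscles, and of the 13 that fell, 1 did. Dnajb13, 1 of the 9, entered the quadriceps fit through the sick libraries alone and is described without a test.

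These counts rest on few libraries. The count of 7 in gastrocnemius became 1 and 3 on leaving out wild-type replicates 2 and 3, and 15, 2 and 1 on leaving out sick replicates 1, 2 and 3. The 15 of quadriceps became 5 without wild-type replicate 1, 5 without replicate 2 and 4 without replicate 3, and 1, 6 and 23 without sick replicates 2, 3 and 4. The 14 of tibialis became 6 without wild-type replicate 2, and 8 and 3 on leaving out sick replicates 1 and 2. With sick replicate 2 left out, the members past the threshold were Dnajb6 and Dnajb5 in gastrocnemius, of which Dnajb5 was not called with all libraries, Dnajb6 in quadriceps, and Cryab, Hspb6 and Dnajb12 in tibialis. Without wild-type replicate 4 the counts were 7, 13 and 10 in gastrocnemius, quadriceps and tibialis. They include Hsp90ab1 in gastrocnemius and quadriceps and Hspa2 in gastrocnemius, which are given below without a test.

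The immediate early genes named above had higher sums in each sick library than in wild-type replicates 1, 2 and 3 of its muscle. They summed to 396, 778 and 819 CPM in sick and 296, 279.6, 206 and 532 CPM in wild-type gastrocnemius, 1001, 657 and 449 CPM in sick and 247, 264, 215 and 600.2 CPM in wild-type quadriceps, and 295, 718 and 640.2 CPM in sick and 223, 265, 258 and 527 CPM in wild-type tibialis. Of the 10 genes, 3 rose in sick gastrocnemius, 1 in quadriceps and 0 in tibialis, and 0 fell. With 8.22%, 10.5% and 8.44% of all genes rising and 6.52%, 7.49% and 9.61% falling, nothing is read from these counts. The states overlapped, since wild-type replicate 4 lay within the sick range in each muscle, and the part of handling in the changes of the chaperone genes was not tested.

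**Figure D2:**
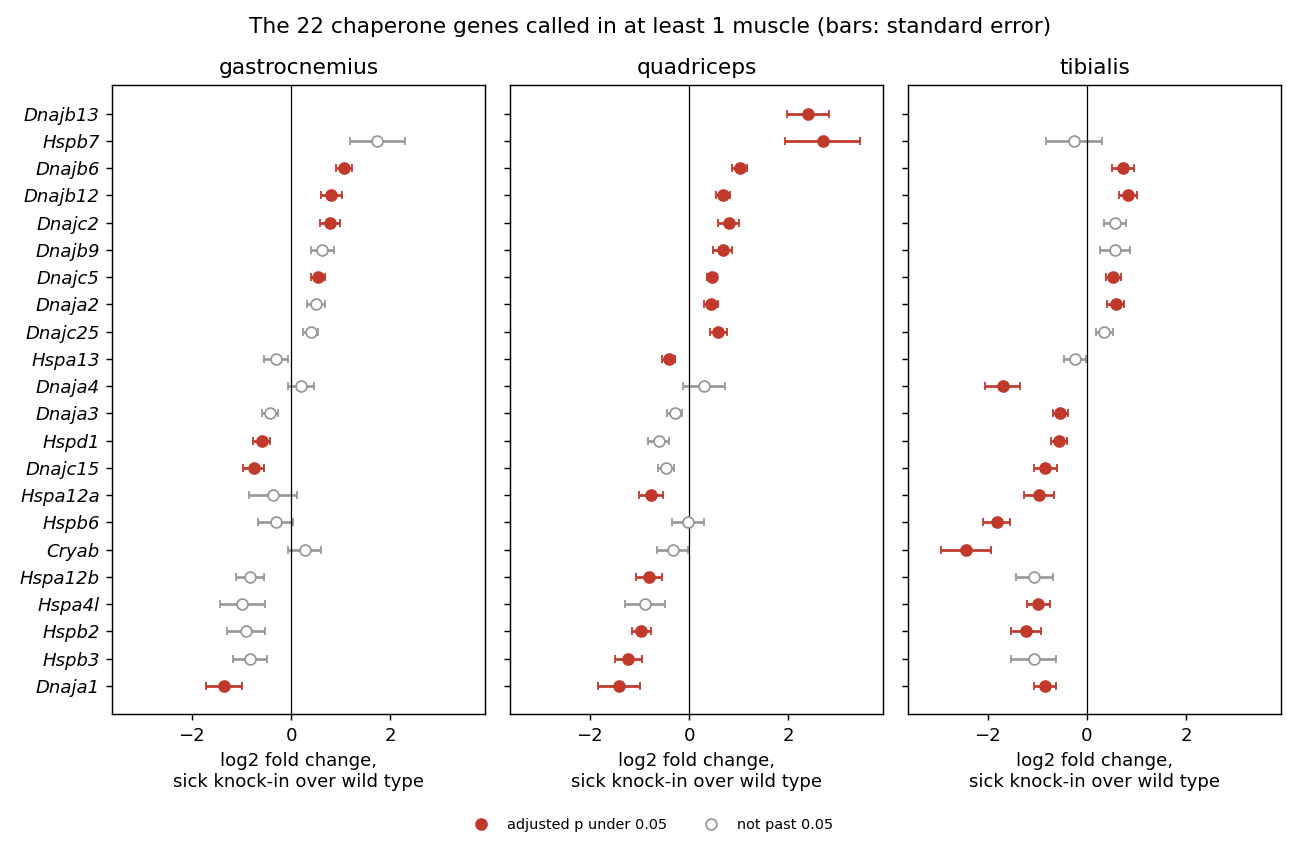
Log2 fold change of sick knock-in over wild type with its standard error for the 22 members called in at least 1 muscle, one panel per muscle. Filled red points passed an adjusted p of 0.05 and open grey points did not. Dnajb6, Dnajb12 and Dnajc5 are filled on the right and Dnaja1 on the left in each panel. Dnajb13 was fitted in quadriceps alone, which it entered through the sick libraries.

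Among the cytosolic Hsp70 genes, the abundant constitutive member Hspa8 had 240.1, 406 and 400.5 CPM in sick knock-in, 285, 314 and 255 CPM in healthy knock-in and 341, 307, 279 and 459 CPM in wild-type gastrocnemius. It had 401, 366 and 289.6 CPM in sick knock-in, against 282, 358, 302 and 552 CPM in wild-type quadriceps, and 201, 288 and 245 CPM in sick knock-in, against 275, 338, 377 and 400.1 CPM in wild-type tibialis. The states overlapped in all 3 muscles, although 2 of the 3 sick tibialis libraries lay below all wild-type ones. Its log2 fold changes were -0.02 ± 0.24 (adjusted p = 0.965), -0.05 ± 0.21 (adjusted p = 0.898) and -0.51 ± 0.18 (adjusted p = 0.0629) in gastrocnemius, quadriceps and tibialis (± SE, here and below). Inducible Hspa1b had 4.31, 3.14 and 10.3 CPM in sick knock-in, against 2.15, 2.55, 2.27 and 139 CPM in wild-type gastrocnemius, 7.01, 2.74 and 3.96 CPM in sick knock-in, against 1.02, 2.44, 1.19 and 269.5 CPM in wild-type quadriceps, and 0.674, 0.675 and 0.582 CPM in sick knock-in, against 0.882, 1.59, 2.25 and 18.7 CPM in wild-type tibialis. In tibialis all 3 sick libraries lay under the 4 wild-type ones. Its log2 fold changes were -0.08 ± 1.30, 0.48 ± 1.92 and -2.20 ± 1.23, with adjusted p-values of 0.973, 0.883 and 0.217, and those of Hspa1a were -0.58, 0.93 and -2.67, so that neither copy was called. With the quadriceps libraries of high Hspa1a (wild-type replicate 4 and healthy replicates 3 and 4) left out together, the changes in sick against wild-type quadriceps were 1.64 for Hspa1b and 2.12 for Hspa1a, which are given without a test because the libraries were chosen on these levels. Hspa2, an Hsp70 gene known from testis, had 3.81, 3.94 and 3.39 CPM in sick knock-in, against 7.80, 5.86, 6.97 and 3.78 CPM in wild-type gastrocnemius. Its change in gastrocnemius was -0.70 ± 0.29 (adjusted p = 0.12) and was not called. Without wild-type replicate 4 it was -0.86, given without a test because the library left out is the one that lay within the sick range. Hspa1a and Hspa1b lie 9951 bases apart on chromosome 17.

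The other Hsp70 genes that were called are atypical or lie outside the cytosol. Hspa12a, a distant member of the family, had 4.43, 6.24 and 6.14 CPM in sick knock-in, 6.57, 12.2, 10.1 and 14.1 CPM in healthy knock-in and 9.52, 9.86, 9.01 and 8.77 CPM in wild-type quadriceps. Each sick library lay under each wild-type one there. It fell in sick quadriceps by a log2 fold change of -0.77 ± 0.24 (adjusted p = 0.0449) and in sick tibialis by -0.97 ± 0.31 (adjusted p = 0.0467), and its change in gastrocnemius was -0.36 ± 0.48 (adjusted p = 0.63). Without wild-type replicate 4 these were -0.79 (adjusted p = 0.0556) in quadriceps and -1.06 (adjusted p = 0.0533) in tibialis, no longer past the threshold. Hspa12b, known from endothelium, fell in sick quadriceps by -0.81 ± 0.26 (adjusted p = 0.0492) and was -0.74 (adjusted p = 0.0793) without that library. Endothelial markers fell in 1 of 6 genes there, where 7.49% of all genes fell, and nothing is read from that count. They summed to 329.7, 283 and 264 CPM in sick and 385, 333, 391 and 334 CPM in wild-type quadriceps. Each sick sum lay below each wild-type sum. None of the 6 was at 0 throughout, and their part in Hspa12b was not tested. Hspa13, a microsomal Hsp70, fell in quadriceps by -0.41 ± 0.13 (adjusted p = 0.044), or -0.39 (adjusted p = 0.0692) without wild-type replicate 4. The 3 genes thus had no call in quadriceps without that library, although their changes stayed close to those with all libraries. Their calls there held under only 4, 3 and 3 of 15 alternative settings.

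The Hsp110 genes exchange the nucleotide of Hsp70. Hspa4l had 6.74, 7.31 and 9.90 CPM in sick knock-in, 11.9, 13.7, 8.99 and 14.3 CPM in healthy knock-in and 19.8, 11.4, 13.8 and 17.1 CPM in wild-type tibialis. All sick values lay below all wild-type values. It fell in sick tibialis with a log2 fold change of -0.98 ± 0.24 (adjusted p = 0.0206), and without wild-type replicate 4 it was -0.91 (adjusted p = 0.0441). Its changes in gastrocnemius and quadriceps were -0.98 and -0.88, and did not pass (adjusted p = 0.162 and 0.142). Hspa4, its constitutive relative, differed by -0.05 ± 0.16 (adjusted p = 0.862), -0.24 ± 0.15 (adjusted p = 0.272) and -0.09 ± 0.14 (adjusted p = 0.672) in gastrocnemius, quadriceps and tibialis. Hsph1 had 30.4, 127 and 74.5 CPM in sick knock-in, against 52.9, 72.5, 72.5 and 209.8 CPM in wild-type gastrocnemius, and its 3 adjusted p-values were 0.573, 0.259 and 0.726.

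The 2 cytosolic Hsp90 genes lay at opposite signs. Hsp90ab1, the constitutive one and the most abundant member per length, had 1471, 2177 and 2485 CPM in sick knock-in, against 1108, 1113, 1067 and 1802 CPM in wild-type gastrocnemius, 2279, 2063 and 1778 CPM in sick knock-in, against 1119, 1239, 1455 and 2040.0 CPM in wild-type quadriceps, and 1455, 2252 and 1709 CPM in sick knock-in, against 886, 1091, 1340.0 and 1486 CPM in wild-type tibialis. In each muscle wild-type replicate 4 was the highest wild-type library. Its log2 fold changes were 0.68 ± 0.26 (adjusted p = 0.0995), 0.51 ± 0.21 (adjusted p = 0.106) and 0.59 ± 0.22 (adjusted p = 0.0732), none past the threshold. Without wild-type replicate 4 they were 0.88, 0.70 and 0.71, given without a test because that library stood apart by the levels of these genes. Inducible Hsp90aa1 had 18.1, 26.2 and 24.5 CPM in sick knock-in, against 24.9, 29.8, 29.7 and 192 CPM in wild-type gastrocnemius, 22.7, 18.6 and 25.5 CPM in sick knock-in, against 20.1, 33.6, 22.5 and 266 CPM in wild-type quadriceps, and 12.8, 17.2 and 17.3 CPM in sick knock-in, against 18.2, 27.7, 27.7 and 86.97 CPM in wild-type tibialis. Its sick libraries overlapped the wild-type ones in gastrocnemius and quadriceps and lay below all of them in tibialis. Its changes were -1.05 ± 0.61 (adjusted p = 0.255), -0.95 ± 0.82 (adjusted p = 0.428) and -1.09 ± 0.46 (adjusted p = 0.108), and without wild-type replicate 4 they were -0.30 (adjusted p = 0.275), -0.14 (adjusted p = 0.83) and -0.58 (adjusted p = 0.191).

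In mitochondria, Hsp60 and Hsp10 form the chaperonin and mortalin, the Hsp70 encoded by Hspa9, draws in and folds imported proteins. Hspd1, which encodes Hsp60, had 90.6, 72.1 and 84.2 CPM in sick knock-in, 108, 112 and 119 CPM in healthy knock-in and 121, 104, 115 and 158 CPM in wild-type gastrocnemius. It had 75.4, 80.5 and 99.2 CPM in sick knock-in, against 104, 115, 121 and 196 CPM in wild-type quadriceps, and 102, 77.95 and 101 CPM in sick knock-in, against 112, 140.4, 163 and 138 CPM in wild-type tibialis. Every sick library lay below every wild-type one of its muscle. It fell in gastrocnemius by a log2 fold change of -0.59 ± 0.17 (adjusted p = 0.0412) and in tibialis by -0.56 ± 0.15 (adjusted p = 0.0292), and the change in quadriceps was -0.61 ± 0.22 (adjusted p = 0.0674). Without wild-type replicate 4 the same changes were -0.46 (adjusted p = 0.0923), -0.54 (adjusted p = 0.0598) and -0.40 (adjusted p = 0.118), and the 2 calls were lost. Hspe1, which encodes Hsp10 and shares the promoter, had 33.04, 35.8 and 35.6 CPM in sick knock-in, against 41.97, 24.2, 28.8 and 41.9 CPM in wild-type gastrocnemius, 31.9, 32.3 and 29.3 CPM in sick knock-in, against 22.8, 26.6, 27.2 and 63.6 CPM in wild-type quadriceps, and 34.9, 33.1 and 30.2 CPM in sick knock-in, against 28.8, 33.04, 59.5 and 42.6 CPM in wild-type tibialis. Its states overlapped in each muscle, with changes of 0.07 ± 0.20 (adjusted p = 0.846), 0.01 ± 0.29 (adjusted p = 0.984) and -0.27 ± 0.22 (adjusted p = 0.402). Hspa9 changed by 0.22, 0.17 and -0.08, with adjusted p-values of 0.375, 0.637 and 0.725.

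The called J-proteins of mitochondria all fell, namely Dnajc15 and Dnaja3. Dnajc15, of the inner membrane, had 34.6, 23.4 and 38.1 CPM in sick knock-in, 62.7, 48.2 and 72.8 CPM in healthy knock-in and 68.5, 48.5, 46.05 and 49.6 CPM in wild-type gastrocnemius. It had 36.9, 26.8 and 38.95 CPM in sick knock-in, against 51.5, 58.4, 91.05 and 48.4 CPM in wild-type tibialis. The sick values lay below all wild-type values in both muscles. It fell with a change of -0.75 ± 0.21 (adjusted p = 0.0391) in gastrocnemius and -0.84 ± 0.23 (adjusted p = 0.0272) in tibialis, and was -0.46 ± 0.16 (adjusted p = 0.0652) in quadriceps. Without wild-type replicate 4 the gastrocnemius value was -0.78 (adjusted p = 0.0589). Dnaja3, the mitochondrial J-protein of the DNAJA family, fell in tibialis, with 118, 94.6 and 115 CPM in sick knock-in, against 149, 150.1, 186 and 149 CPM in wild-type tibialis and a change of -0.54 ± 0.14 (adjusted p = 0.0274). Its values in gastrocnemius and quadriceps were -0.42 and -0.29. Of the 8 members placed in mitochondria, 2 fell in gastrocnemius, 0 in quadriceps and 3 in tibialis, where 6.52%, 7.49% and 9.61% of all genes did. None of the 8 rose, a number too small to read against the 8.22%, 10.5% and 8.44% of all genes that rose.

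Small heat shock protein genes gave both the largest called rise of the set, that of Hspb7 in quadriceps, and the largest called fall, that of Cryab in tibialis. Cryab encodes alpha-B-crystallin, which binds desmin and titin. It had 344, 74.8 and 149.5 CPM in sick knock-in, 479, 461, 542 and 459 CPM in healthy knock-in and 568, 497, 958 and 2093 CPM in wild-type tibialis. All 3 sick libraries lay below all 8 healthy and wild-type ones. The fall in sick tibialis was -2.44 ± 0.50 (adjusted p = 0.0118) on the log2 scale, and -2.01 (adjusted p = 0.02) without wild-type replicate 4. Cryab had 455, 441 and 822 CPM in sick knock-in, against 568, 331, 760.2 and 343 CPM in wild-type gastrocnemius, and 499, 257 and 224 CPM in sick knock-in, against 351, 283, 408 and 522 CPM in wild-type quadriceps, where the states overlapped and the changes were 0.28 ± 0.33 (adjusted p = 0.591) and -0.33 ± 0.31 (adjusted p = 0.471).

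Hspb6, which encodes Hsp20, a target of cyclic nucleotide-dependent kinases, followed Cryab in tibialis, with 498, 278 and 465 CPM in sick knock-in, 971, 740.2, 1120.0 and 921 CPM in healthy knock-in and 992, 1218, 1634 and 2103 CPM in wild-type tibialis. The highest sick library lay below the lowest healthy and the lowest wild-type library. It fell with a change of -1.82 ± 0.27 (adjusted p = 0.00331), and was -0.31 in gastrocnemius and -0.03 in quadriceps (adjusted p = 0.573 and 0.968). Hspb2, a muscle small heat shock protein whose gene overlaps Cryab head to head on chromosome 9, had 8.75, 14.5 and 13.6 CPM in sick knock-in, against 26.0, 21.6, 24.5 and 18.9 CPM in wild-type quadriceps, and 19.2, 6.55 and 14.9 CPM in sick knock-in, against 22.5, 24.9, 37.2 and 29.7 CPM in wild-type tibialis. The sick values lay below the wild-type ones in both muscles. It fell with a change of -0.96 ± 0.20 (adjusted p = 0.0133) in quadriceps and -1.22 ± 0.30 (adjusted p = 0.0214) in tibialis, and its value in gastrocnemius was -0.91 ± 0.38 (adjusted p = 0.125). The exons of Hspb2 and Cryab overlap by 252 bases on opposite strands, 30.2% of Hspb2, and the strand option of the counting is not given, so their reads may not be told apart. Hspb3, the partner of Hspb2, had 5.74, 8.98 and 10.99 CPM in sick knock-in, against 20.2, 17.4, 23.5 and 14.03 CPM in wild-type quadriceps, without overlap, and fell there by -1.22 ± 0.28 (adjusted p = 0.0172). It was -0.83 in gastrocnemius and -1.07 in tibialis, neither past the threshold.

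Hspb7, a small heat shock protein of heart and muscle that binds filamin C, had 2298, 1992 and 269.5 CPM in sick knock-in, 179, 105, 339 and 84.5 CPM in healthy knock-in and 116, 103, 178 and 351 CPM in wild-type quadriceps. Sick replicates 2 and 3 stood above all others and replicate 4 lay within the wild-type range. The log2 fold change in quadriceps was 2.69 ± 0.76 (adjusted p = 0.0354). In gastrocnemius it had 725, 1714 and 2776 CPM in sick knock-in, 147, 262 and 139.7 CPM in healthy knock-in and 552, 433, 956 and 226 CPM in wild-type gastrocnemius, with the sick libraries above the healthy ones and a change against wild type of 1.74 ± 0.55 (adjusted p = 0.0578). In tibialis it had 788, 1953 and 382 CPM in sick knock-in, against 579, 717, 1048 and 2309 CPM in wild-type tibialis, and the change was -0.26 ± 0.56 (adjusted p = 0.764). Hspb1, which encodes Hsp27, varied in the same libraries, with 68.2, 275 and 324 CPM in sick knock-in, against 100.3, 61.1, 62.9 and 154 CPM in wild-type gastrocnemius and 266, 176 and 61.01 CPM in sick knock-in, against 48.1, 61.9, 53.7 and 217 CPM in wild-type quadriceps. Sick and wild-type values overlapped in both muscles, and the changes of 1.05 ± 0.51 (adjusted p = 0.182), 0.88 ± 0.56 (adjusted p = 0.28) and -0.55 ± 0.46 (adjusted p = 0.403) in gastrocnemius, quadriceps and tibialis did not pass. Hspb8, the partner of Bag3 in selective autophagy, had changes of -0.09 ± 0.29 (adjusted p = 0.854), -0.27 ± 0.18 (adjusted p = 0.297) and -0.53 ± 0.20 (adjusted p = 0.0748).

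The content of slow and oxidative fibre genes also differed between libraries. Their 9 markers, none of them at 0 in all libraries, summed to 2613, 2173 and 448 CPM in sick quadriceps replicates 2, 3 and 4, in the order in which Hspb7 is given above, and to 658, 389, 539 and 2000.2 CPM in wild-type quadriceps. In tibialis the sum was 1564, 497 and 461 CPM in sick, 399, 974, 887 and 1115 CPM in healthy and 2334, 1158, 2993 and 2075 CPM in wild-type libraries. In gastrocnemius it was 6571, 2071 and 9525 CPM in sick, 281, 3269.5 and 721 CPM in healthy and 5953, 2311, 5439 and 1573 CPM in wild-type libraries. Of the 9, 2 rose in sick quadriceps, 2 fell in sick tibialis and 0 were called in gastrocnemius. Over all genes 10.5% rose in quadriceps and 9.61% fell in tibialis. Hspb7 ran in the order of these sums in the sick quadriceps libraries, but not in those of gastrocnemius or tibialis. The part of fibre content in the levels of Cryab, Hspb6, Hspb7 and Hspb1 was not tested. In tibialis, 8 of 10 kidney tubule markers also fell, where 9.61% of all genes did. They summed to 4.53, 21.96 and 8.32 CPM in sick, 10.7, 17.9, 8.70 and 57.7 CPM in healthy and 62.6, 84.7, 86.2 and 70.8 CPM in wild-type libraries. The healthy libraries thus lay below the wild-type ones as well, and the part of these markers was not tested either.

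**Figure D3:**
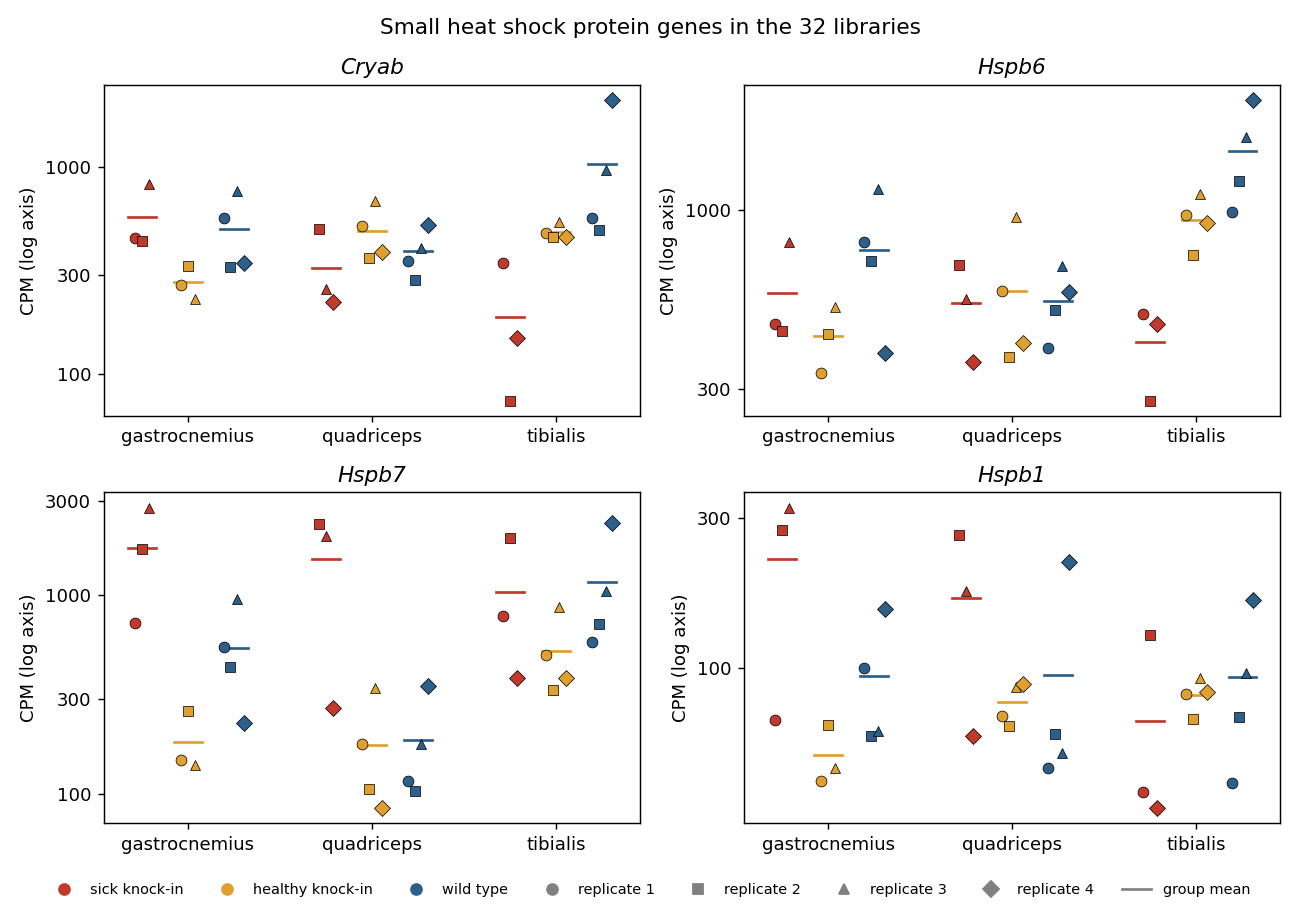
CPM on log axes of 4 small heat shock protein genes in each library, by muscle and state, with lines at the group means. The 3 sick tibialis libraries are the lowest tibialis libraries of Cryab and of Hspb6. For Hspb7, 2 of the 3 sick quadriceps libraries stand near 2000 CPM and the third within the wild-type range.

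Among the J-proteins, Dnajb6 rose in all 3 sick muscles. It encodes a J-protein of the Z-disc that keeps aggregating proteins soluble and that is mutated in a dominant limb-girdle muscular dystrophy. It had 79.9, 93.7 and 113 CPM in sick knock-in, 43.7, 41.6 and 50.2 CPM in healthy knock-in and 52.95, 41.8, 42.1 and 45.3 CPM in wild-type gastrocnemius. It had 107, 104 and 72.2 CPM in sick knock-in, 49.6, 40.6, 43.1 and 42.9 CPM in healthy knock-in and 45.05, 41.2, 50.8 and 48.3 CPM in wild-type quadriceps, and 86.02, 132 and 75.2 CPM in sick knock-in, 59.3, 40.5, 55.3 and 51.2 CPM in healthy knock-in and 50.97, 51.4, 71.6 and 56.9 CPM in wild-type tibialis. Each sick library lay above each healthy and each wild-type library of its muscle. The log2 fold changes were 1.07 ± 0.16 (adjusted p = 0.00417), 1.02 ± 0.15 (adjusted p = 0.00598) and 0.73 ± 0.21 (adjusted p = 0.0367) in gastrocnemius, quadriceps and tibialis. Without sick replicate 2 they were 1.08 (adjusted p = 0.0183), 0.89 (adjusted p = 0.0399) and 0.51 (adjusted p = 0.114), and on leaving out wild-type replicate 4 that of tibialis was 0.74 (adjusted p = 0.0559).

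Dnajb12, a J-protein anchored in the membrane of the endoplasmic reticulum, had 80.6, 99.9 and 110.1 CPM in sick knock-in, against 50.5, 55.7, 45.2 and 69.2 CPM in wild-type gastrocnemius, 120.2, 104 and 86.95 CPM in sick knock-in, against 57.1, 59.8, 69.0 and 73.7 CPM in wild-type quadriceps, and 89.8, 121 and 79.9 CPM in sick knock-in, against 48.5, 53.6, 53.2 and 60.2 CPM in wild-type tibialis. All sick values exceeded all wild-type values. It rose by 0.81 ± 0.21 (adjusted p = 0.027), 0.69 ± 0.14 (adjusted p = 0.0141) and 0.83 ± 0.18 (adjusted p = 0.0128). Dnajc5 encodes cysteine string protein alpha, a chaperone of synaptic and secretory vesicles. It had 91.0, 89.6 and 89.9 CPM in sick knock-in, against 53.5, 64.2, 62.02 and 67.04 CPM in wild-type gastrocnemius, 99.96, 86.3 and 79.5 CPM in sick knock-in, against 66.3, 64.3, 61.4 and 66.5 CPM in wild-type quadriceps, and 94.8, 109 and 80.3 CPM in sick knock-in, against 69.3, 66.8, 55.7 and 70.4 CPM in wild-type tibialis, again with no overlap. It rose by 0.55 ± 0.14 (adjusted p = 0.0282), 0.46 ± 0.11 (adjusted p = 0.0193) and 0.53 ± 0.15 (adjusted p = 0.0327).

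Dnaja1, a farnesylated cytosolic J-protein that partners Hsp70, fell in all 3 muscles. It had 19.1, 14.7 and 14.2 CPM in sick knock-in, 29.2, 40.2 and 41.1 CPM in healthy knock-in and 28.6, 36.5, 28.8 and 87.6 CPM in wild-type gastrocnemius. It had 14.4, 14.7 and 20.8 CPM in sick knock-in, 31.2, 40.8, 58.6 and 43.01 CPM in healthy knock-in and 30.3, 38.5, 32.6 and 106 CPM in wild-type quadriceps, and 16.4, 13.1 and 20.5 CPM in sick knock-in, 26.8, 33.99, 36.03 and 31.6 CPM in healthy knock-in and 22.6, 27.4, 27.5 and 42.7 CPM in wild-type tibialis. Each sick library lay below each healthy and each wild-type library. The log2 fold changes were -1.35 ± 0.37 (adjusted p = 0.0347), -1.41 ± 0.43 (adjusted p = 0.0437) and -0.85 ± 0.23 (adjusted p = 0.0281), and without wild-type replicate 4 they were -0.96 (adjusted p = 0.0181), -1.02 (adjusted p = 0.0231) and -0.64 (adjusted p = 0.0552). Its close relative Dnaja2 had 333, 292 and 253 CPM in sick knock-in, against 189.8, 212, 231 and 236 CPM in wild-type quadriceps, and 276, 358 and 261 CPM in sick knock-in, against 164, 188, 231 and 210.4 CPM in wild-type tibialis. It rose by 0.44 ± 0.13 (adjusted p = 0.042) in quadriceps and 0.58 ± 0.17 (adjusted p = 0.0374) in tibialis, and was 0.51 ± 0.18 (adjusted p = 0.082) in gastrocnemius. Dnaja4, the third cytosolic DNAJA gene, had 31.4, 16.6 and 23.5 CPM in sick knock-in, against 67.5, 56.4, 58.7 and 139 CPM in wild-type tibialis, without overlap, and fell there by -1.70 ± 0.35 (adjusted p = 0.0122). It was 0.21 in gastrocnemius and 0.30 in quadriceps. Exons of Wdr61 on the opposite strand cover 44.1% of its exon length.

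**Figure D4:**
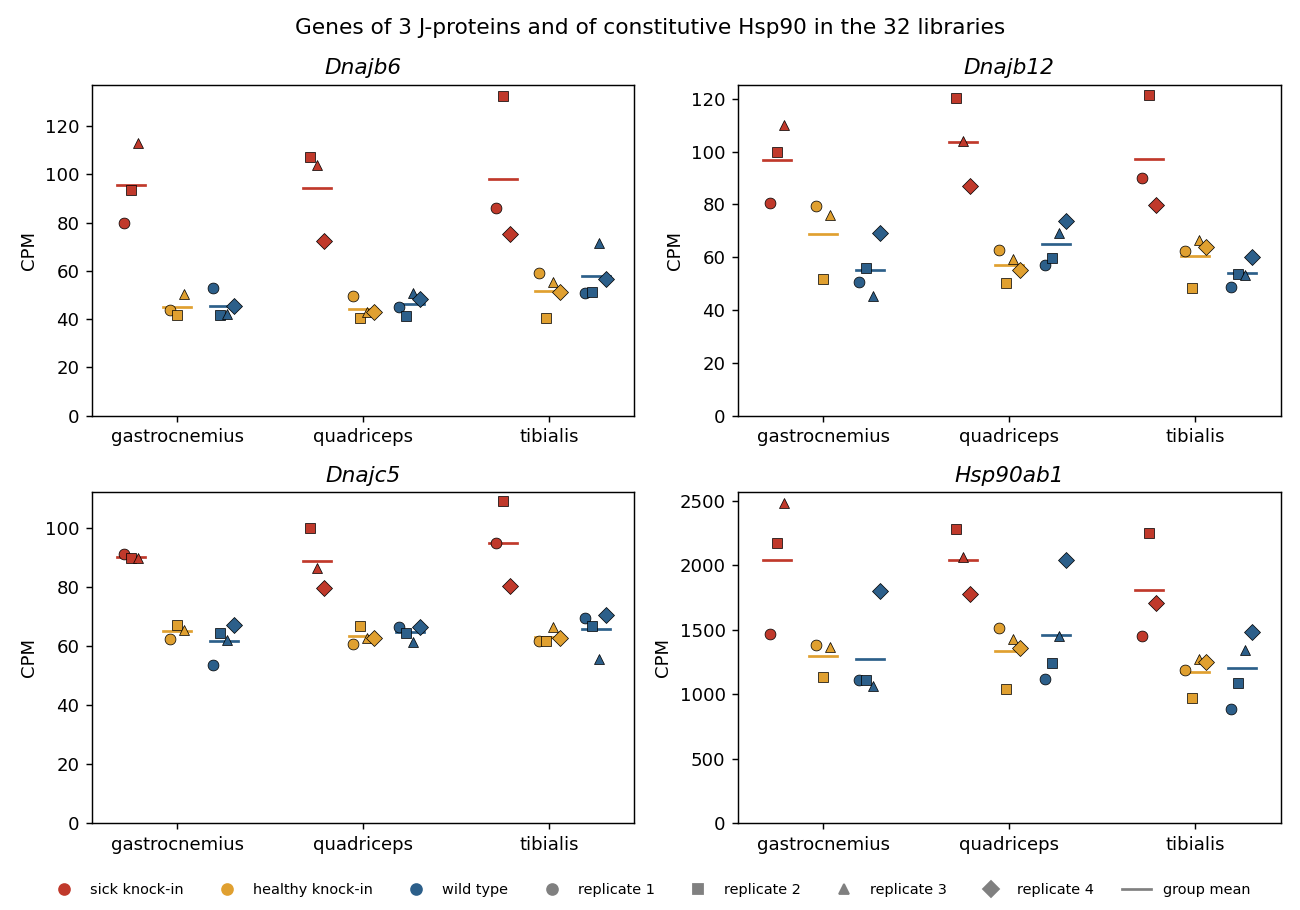
CPM of 3 J-protein genes and of constitutive Hsp90ab1 in each library, on axes that start at 0, with lines at the group means. The sick libraries of Dnajb6, Dnajb12 and Dnajc5 lie above the healthy and wild-type libraries of the same muscle, and wild-type replicate 4 of Hsp90ab1 lies within the sick range in each muscle.

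Further J-protein genes were called in the sick mice. Dnajc2, a ribosome-associated J-protein, had 31.3, 44.4 and 45.7 CPM in sick knock-in, against 25.1, 18.3, 24.1 and 25.4 CPM in wild-type gastrocnemius, and 46.8, 35.7 and 26.8 CPM in sick knock-in, against 19.1, 20.1, 20.6 and 24.8 CPM in wild-type quadriceps. The sick values lay above the wild-type ones. It rose by 0.79 ± 0.20 (adjusted p = 0.0259) and 0.80 ± 0.20 (adjusted p = 0.0253), and was 0.56 ± 0.23 (adjusted p = 0.0972) in tibialis. Dnajb9, which removes misfolded proteins from the endoplasmic reticulum, had 83.3, 48.8 and 65.6 CPM in sick knock-in, against 35.4, 36.8, 39.4 and 56.3 CPM in wild-type quadriceps, and its rise in quadriceps of 0.68 ± 0.19 (adjusted p = 0.0336) came with values of 0.63 in gastrocnemius and 0.56 in tibialis that did not pass. Dnajc25 rose in quadriceps by 0.59 ± 0.17 (adjusted p = 0.0362). Dnajb13, known from sperm tails and cilia, was near the limit of detection, with 1.42, 1.62 and 0.889 CPM in sick knock-in, against 0.268, 0.227, 0.149 and 0.526 CPM in wild-type quadriceps and 0.235 to 0.569 CPM in healthy quadriceps. All 3 sick libraries and none of the others passed the limit of 0.779 CPM for entering the fit, so that a difference was fixed by the filter, and its log2 fold change of 2.40 is given without a test. Exons of Ucp2 on the opposite strand cover 11.2% of its exon length. The remaining DNAJB and DNAJC genes, among them Dnajb1, the stress-inducible partner of Hsp70, were not called. Dnajb1 had 8.82, 10.96 and 8.25 CPM in sick knock-in, against 8.55, 6.98, 7.65 and 12.96 CPM in wild-type gastrocnemius, and its log2 fold changes were 0.15, 0.21 and -0.06 in gastrocnemius, quadriceps and tibialis.

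Calls differed in how many of the alternative settings they held under. Dnajb6 kept its call under 14 of 14 alternatives in gastrocnemius (adjusted p 0.000418 to 0.0235), 15 of 15 in quadriceps (adjusted p 0.000131 to 0.0399) and 7 of 14 in tibialis (adjusted p 0.0051 to 0.114). Dnajb12 did so under 10 of 14 (adjusted p 0.00254 to 0.102), 12 of 15 (adjusted p 0.00222 to 0.0843) and 14 of 14 (adjusted p 0.00182 to 0.041) in the same order of muscles. Dnaja1 held under 10 of 14 (adjusted p 0.0144 to 0.132), 8 of 15 (adjusted p 0.0146 to 0.195) and 8 of 14 (adjusted p 0.0221 to 0.122), and Dnajc5 under 7 of 14, 8 of 15 and 6 of 14. In tibialis Hspb6 held under 14 of 14 (adjusted p 0.000754 to 0.013), Cryab under 13 of 14 (adjusted p 0.000394 to 0.0523) and Hspa4l under 11 of 14 (adjusted p 0.0177 to 0.0749). Of the mitochondrial genes, Hspd1 held under 7 of 14 in gastrocnemius (adjusted p 0.0232 to 0.149) and 8 of 14 in tibialis (adjusted p 0.0257 to 0.106), and Dnajc15 under 7 of 14 (adjusted p 0.0155 to 0.173) and 10 of 14 (adjusted p 0.00594 to 0.11). Hspa12a held under 4 of 15 in quadriceps (adjusted p 0.0289 to 0.249) and 2 of 14 in tibialis (adjusted p 0.0413 to 0.19). Hspb7 in quadriceps held under 7 of 15 (adjusted p 0.00229 to 0.182), with log2 fold changes of 2.15 to 3.68. In the same muscle Dnaja2 held under 5 of 15 (adjusted p 0.0141 to 0.217), Dnajc25 under 5 of 15 (adjusted p 0.0182 to 0.221), Hspa12b under 3 of 15 (adjusted p 0.0393 to 0.287) and Hspa13 under 3 of 15 (adjusted p 0.0237 to 0.193). The other calls held under 9 of 14 alternatives for Dnajc2 in gastrocnemius and 9 of 15 in quadriceps, 8 of 15 for Dnajb9, 12 of 15 for Hspb3 and 13 of 15 for Hspb2 in quadriceps, and in tibialis 11 of 14 for Hspb2, 8 of 14 for Dnaja2, 10 of 14 for Dnaja3 and 13 of 14 for Dnaja4.

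The 2 abundant chaperones of the endoplasmic reticulum were not called in any muscle. Hspa5, which encodes BiP, had 158, 184 and 244 CPM in sick knock-in, against 220.1, 208, 223 and 319 CPM in wild-type gastrocnemius, 167, 177 and 266 CPM in sick knock-in, against 178, 251, 184 and 341 CPM in wild-type quadriceps, and 173, 174 and 177 CPM in sick knock-in, against 151, 198, 208 and 309.5 CPM in wild-type tibialis. The states overlapped in all 3 muscles, and wild-type replicate 4 was again the highest wild-type library. Its changes were -0.32 ± 0.24 (adjusted p = 0.385), -0.21 ± 0.28 (adjusted p = 0.626) and -0.26 ± 0.26 (adjusted p = 0.497), and those of Hsp90b1, which encodes Grp94, were -0.21 ± 0.21 (adjusted p = 0.513), -0.14 ± 0.22 (adjusted p = 0.691) and -0.07 ± 0.22 (adjusted p = 0.839).

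Of 28 further genes of endoplasmic reticulum folding and the unfolded protein response, 27 were tested. In sick gastrocnemius 2 rose and 6 fell, in quadriceps 3 rose and 0 fell, and in tibialis 2 rose and 4 fell. Over all genes 8.22% rose and 6.52% fell in gastrocnemius, 10.5% and 7.49% in quadriceps and 8.44% and 9.61% in tibialis, so that counts of 2 or 3 genes lie near the background. Their median log2 fold changes were 0.03, 0.02 and -0.08. Atf4, the factor of the integrated stress response, rose by 1.30, 1.24 and 1.29, and Ern1, which encodes the sensor Ire1, by 1.08, 0.98 and 0.85. Pdia4, a disulphide isomerase, fell with a change of -1.24 ± 0.28 (adjusted p = 0.0164) in gastrocnemius and -0.93 ± 0.30 (adjusted p = 0.0493) in tibialis, and Manf by -0.94 ± 0.26 (adjusted p = 0.036) and -0.96 ± 0.31 (adjusted p = 0.0482).

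Of 36 heat shock factors and cytosolic cochaperones, 5 rose and 4 fell in sick gastrocnemius, 5 and 4 in quadriceps, and 2 and 5 in tibialis, with medians of 0.00, -0.01 and -0.11. Beside the same shares of all genes (8.22% and 6.52%, 10.5% and 7.49%, and 8.44% and 9.61%), nothing is read from the counts of the whole list. Hsf1 itself rose in quadriceps by 0.45 ± 0.13 (adjusted p = 0.0329) and was 0.43 ± 0.15 (adjusted p = 0.0746) in gastrocnemius and 0.42 ± 0.17 (adjusted p = 0.102) in tibialis. Serpinh1, the collagen chaperone Hsp47, fell most, by -2.30, -1.83 and -2.09 in gastrocnemius, quadriceps and tibialis. Fibro-adipogenic progenitor markers fell with it in 4, 3 and 4 of 7 genes. They summed to 555, 888 and 869 CPM in sick and 1317, 1070.4, 1288 and 984 CPM in wild-type gastrocnemius. The sums were 690.1, 930.1 and 789 CPM in sick and 994, 1116, 1113 and 880.2 CPM in wild-type quadriceps, and 287, 513 and 333 CPM in sick and 934, 798, 657 and 862 CPM in wild-type tibialis. None of the 7 was at 0 throughout, and their part was not tested. Fkbp5, a glucocorticoid-induced cochaperone of Hsp90, rose by 2.07 ± 0.43 (adjusted p = 0.0137) in gastrocnemius and 1.96 ± 0.60 (adjusted p = 0.0408) in tibialis. Sqstm1, the autophagy receptor p62, rose by 1.33 ± 0.41 (adjusted p = 0.0484) in gastrocnemius and 1.29 ± 0.31 (adjusted p = 0.0216) in quadriceps, and Ubb, a polyubiquitin gene, by 0.79 ± 0.20 (adjusted p = 0.0259) and 1.002 ± 0.23 (adjusted p = 0.0172).

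The cytosolic chaperonin and prefoldin take up newly made actin and tubulin. Of their 14 genes, 2 rose in sick gastrocnemius and 3 in quadriceps, 0 rose in tibialis, and none fell in any muscle. With 8.22%, 10.5% and 8.44% of all genes rising and 6.52%, 7.49% and 9.61% falling, nothing is read from counts in so short a list. Cct2 rose by 0.69 ± 0.16 (adjusted p = 0.0211) in gastrocnemius and 0.61 ± 0.15 (adjusted p = 0.0252) in quadriceps, and Tcp1 by 0.62 and 0.43. Among 16 further mitochondrial chaperones and proteases, Clpx rose in quadriceps by 0.50 ± 0.16 (adjusted p = 0.0488) and Htra2 fell in tibialis by -0.58 ± 0.18 (adjusted p = 0.0413).

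The second comparison asks whether the knock-in without sickness changes these genes. No member was called between healthy knock-in and wild-type mice in any muscle by limma-voom. The share of all genes called was 0.00706% in gastrocnemius, 0.0362% in quadriceps and 0.496% in tibialis. At an unadjusted p under 0.05 there were 6 members in gastrocnemius, 1 in quadriceps and 1 in tibialis, and limma-trend called 0 in each. Some genes of any list pass an unadjusted limit by chance, and nothing is read from these counts. The widest difference among those 6 was in Hspb7, with 147, 262 and 139.7 CPM in healthy knock-in, against 552, 433, 956 and 226 CPM in wild-type gastrocnemius and a log2 fold change of -1.41 ± 0.49 (adjusted p = 0.612). Dnajb6 and Dnaja1, which moved in the sick mice, differed in healthy gastrocnemius by -0.02 ± 0.16 (adjusted p = 0.976) and -0.18 ± 0.35 (adjusted p = 0.887). In the 3 muscles the other lists of chaperones had 0 members called.

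The third comparison sets sick against healthy knock-in mice, which share the mutation. In gastrocnemius 4 members were higher and 2 lower, where 7.17% of genes were higher and 6.9% lower. In quadriceps 7 were higher and 6 lower, where 10.1% and 7.51% of genes were, and in tibialis 3 and 4, where 5.03% and 6.3% were. Dnajb6 rose in each muscle, by 1.09 ± 0.17 (adjusted p = 0.00406), 1.09 ± 0.15 (adjusted p = 0.00472) and 0.88 ± 0.21 (adjusted p = 0.0284). Hspb7 rose by 3.14 ± 0.55 (adjusted p = 0.00685) in gastrocnemius and 2.85 ± 0.75 (adjusted p = 0.0284) in quadriceps. The sick libraries are the same as in the comparison with wild type, so the 2 sets of fold changes share them.

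In gastrocnemius Hspb1 was higher in sick than in healthy mice, with 68.2, 275 and 324 CPM in sick knock-in, against 43.9, 66.2 and 48.3 CPM in healthy knock-in gastrocnemius and a change of 1.84 ± 0.53 (adjusted p = 0.0422). Dnaja4 had 31.3, 49.5 and 49.2 CPM in sick knock-in, against 20.1, 25.98 and 21.9 CPM in healthy knock-in gastrocnemius, without overlap, and was higher by 0.92 ± 0.28 (adjusted p = 0.0483). Dnajb14, a membrane J-protein of the endoplasmic reticulum, had 14.3, 11.7 and 17.6 CPM in sick knock-in, against 31.9, 31.1 and 29.96 CPM in healthy knock-in gastrocnemius, and was lower with a change of -1.13 ± 0.24 (adjusted p = 0.0141). Dnajc15 was lower with a change of -0.94 ± 0.23 (adjusted p = 0.0206) in gastrocnemius and -0.75 ± 0.16 (adjusted p = 0.0143) in quadriceps.

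In quadriceps the further members higher in sick mice were Dnajb9 (0.89), Dnajb12 (0.86), Dnajc5 (0.49) and Dnaja2 (0.49). Those lower were Hspb3 (-1.10), Hspb2 (-1.02), Hspa12a (-0.93), Hspd1 (-0.76) and Hspa13 (-0.48), all as log2 fold changes. Dnajb13, counted among the 7 higher, had a change of 1.65 that the filter fixed in the same way. In tibialis Hspb6 was lower with a change of -1.21 ± 0.27 (adjusted p = 0.0232), Hspb2 by -1.10 ± 0.30 (adjusted p = 0.0406), Hspa12a by -1.04 ± 0.30 (adjusted p = 0.0476) and Dnaja1 by -0.97 ± 0.23 (adjusted p = 0.0267), and Dnajb12 and Dnajc5 were higher by 0.66 ± 0.18 (adjusted p = 0.0367) and 0.57 ± 0.15 (adjusted p = 0.036). Cryab, the member that fell most against wild type there, differed by -1.62 ± 0.50 (adjusted p = 0.0547) from healthy tibialis.

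Sick replicate 2 decided many of these calls, and without it the counts were 2 in gastrocnemius, 2 in quadriceps and 0 in tibialis. In gastrocnemius they were 3 without healthy replicate 1, 3 without healthy replicate 3 and 10 without sick replicate 1. In quadriceps they were 8 without healthy replicate 3, 4 without sick replicate 3 and 22 without sick replicate 4, and 5 with wild-type replicate 4 and healthy replicates 3 and 4 left out together. In tibialis they were 3, 1, 1 and 2 without healthy replicates 1, 2, 3 and 4, and 3 without sick replicate 1.

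Whether the sick change differs between muscles was tested in 1 model of all 32 libraries. No member passed by limma-voom for quadriceps against gastrocnemius (0% of 15229 genes called), tibialis against gastrocnemius (0.204%) or tibialis against quadriceps (0.243%). At an unadjusted p under 0.05, which some genes pass by chance, there were 0, 3 and 4 members, and nothing is read from these counts. Limma-trend called 0 in each. That model has no term for the replicate number, although same-numbered libraries of a state deviate together in most pairs of muscles. With state and number as a random block, Cryab passed for tibialis against gastrocnemius, at -2.60 (adjusted p = 0.0329), and Dnaja4 for tibialis against quadriceps, at -1.93 (adjusted p = 0.0414). Without that block, for Cryab the sick change in tibialis minus that in gastrocnemius was -2.69 ± 0.61 (adjusted p = 0.0671) on the log2 scale, and minus that in quadriceps -2.08 ± 0.60 (adjusted p = 0.286). For Dnaja4 these differences were -1.89 ± 0.54 (adjusted p = 0.39) and -1.95 ± 0.54 (adjusted p = 0.237), for Hspb6 -1.50 ± 0.49 (adjusted p = 0.859) and -1.78 ± 0.48 (adjusted p = 0.215), and for Hspb7 the difference between tibialis and quadriceps was -2.93 ± 0.97 (adjusted p = 0.452). A count of 1 came for tibialis against gastrocnemius without gastrocnemius wild-type replicate 3, without tibialis wild-type replicate 2 or without tibialis sick replicate 1, and for tibialis against quadriceps without quadriceps wild-type replicate 4 or without tibialis sick replicate 1.

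The wild-type muscles were also compared with each other. Between wild-type quadriceps and gastrocnemius no member was called by limma-voom, where 0.15% of 14708 genes were higher in quadriceps and 0.925% lower. There were 6 members at an unadjusted p under 0.05, a count from which nothing is read, and 0 by limma-trend. Between tibialis and gastrocnemius 1 member, Hspa12a, was lower in tibialis, with 12.6, 7.19, 7.39 and 7.02 CPM in tibialis and 12.3, 20.6, 19.5 and 13.9 CPM in gastrocnemius and a log2 fold change of -0.95 ± 0.22 (adjusted p = 0.0379), where 1.26% of genes were higher and 1.32% lower. Between tibialis and quadriceps 2 members were higher in tibialis, where 3.58% of genes were higher and 2.09% lower. Hspb6 had 992, 1218, 1634 and 2103 CPM in wild-type tibialis and 395, 511, 686 and 577 CPM in wild-type quadriceps, with a change of 1.45 ± 0.32 (adjusted p = 0.0198). Hspb7 had 579, 717, 1048 and 2309 CPM in tibialis and 116, 103, 178 and 351 CPM in quadriceps, with a change of 2.58 ± 0.51 (adjusted p = 0.0132). Wild-type libraries of the same number deviate together between these muscles. With the number as a block 12 members were called for tibialis against quadriceps, 9 of them higher, and 1 for quadriceps against gastrocnemius. The shares of all genes given above belong to the fit without a block, so nothing is read from these counts about the members as a set. Without a single library the count for tibialis against quadriceps was 1 without quadriceps replicate 1 or 2, 7 without quadriceps replicate 4 and 0 without tibialis replicate 3. For tibialis against gastrocnemius it was 0 without gastrocnemius replicate 2 or tibialis replicate 2, 3 or 4, and 2 without gastrocnemius replicate 1. Without gastrocnemius replicate 3 it was 1 as well, but Hspa12a was lost and Hspb6 called instead. Leaving out gastrocnemius replicate 1 also gave 1 call for quadriceps against gastrocnemius. With wild-type replicate 4 left out of all 3 muscles the counts were 1, 0 and 7 for quadriceps against gastrocnemius, tibialis against gastrocnemius and tibialis against quadriceps.

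Per length of exon, the most abundant member over all 32 libraries was Hsp90ab1 at 493 CPM per kilobase, rank 52 among 22012 protein-coding genes. Cryab at 331 CPM per kilobase, Hspb6 at 314, Hspb7 at 269 and Hspb8 at 144 followed, with ranks of 75, 81, 97 and 185. Hspa9 and Hspb1 came next, and the cytosolic Hsp70 of resting cells, Hspa8, stood at 76.2 CPM per kilobase and rank 379. These levels are means over muscles and states, and single genes spread widely around them, since Hspb7 ran from 84.5 to 2776 CPM between libraries.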

How the data were processed

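One deposited table was used. Per the file headers it holds raw counts by gene and library, and the authors' scaled counts, log2 fold changes and p-values, which were not used here. The raw values are whole and equal the scaled ones multiplied by 1 factor for each library (largest relative deviation 7.7e-10). The submitters' processing notes name cutadapt 1.18, TopHat2 2.1.1, HTSeq 0.6.0, DESeq2 1.22.1 and the build GRCm38. How these were set, whether counting used strand and which annotation was used are not stated. A text mark replaces the value of 6252 of 54838 genes, and no count model was run for that reason.

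Limma-voom (limma 3.58.1, R 4.3.3) was run with TMM totals (trims 0.3 and 0.05), a prior count of 0.5 and robust moderation. Genes entered a fit with summed counts of at least 15 and a CPM worth 10 counts in the median library, in at least as many libraries as the smallest group has. Each muscle had 1 model with a mean per state. A model of 12 libraries compared wild-type muscles, and a model of 32 tested whether changes differ between muscles. Benjamini-Hochberg adjustment ran over all genes of a fit. The fits were tested on simulated data. Coordinates and exon lengths came from GENCODE vM21, in which 54809 identifiers were found.

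Groups and replicate numbers came from the labels. Within groups, all 42 pairs of replicates varied more than sampling noise allows (chi-square per gene 13.3 to 220), and each library counts once. Pairing by number was checked with the correlation of deviations from group means. It was 0.267 to 0.534 for same-numbered wild-type quadriceps and gastrocnemius libraries and 0.215 to 0.451 for tibialis and quadriceps, taken as paired, and 0.02 to 0.549 for tibialis and gastrocnemius, not taken as paired. It was 0.215 to 0.493 over the healthy pairs of muscles and 0.286 to 0.564 over the sick ones, which share only 2 numbers. Between states within a muscle it was -0.174 to 0.257, and numbers were not taken to pair libraries.

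The members and all gene lists were chosen with earlier results of these data known. Named are 19 core members, members called in 2 or more sick muscles, those called in 1 muscle or another comparison up to a set number by size, and up to 4 genes of each other list called in 2 or more sick muscles. Hsf1, Clpx, Htra2, Hspa2 and Dnajb5 lie outside this rule and were chosen after their values were seen. Alternatives changed the scaling, the filter, the weights, the libraries fitted and the replicate block, used limma-trend, or left out a library. Leaving out wild-type replicate 4 of every muscle, or the quadriceps libraries with high Hspa1a, was added after seeing the data.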

Additional observations from a re-analysis of the deposited data

Results flagged for a closer look

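Single libraries stood apart from the other 3 of their group in 30 of 185 sets of 4 values (37 named members in 5 groups of 4 libraries), counted where the gap to the next library, over the whole range, exceeded the 95% critical value of Dixon. Chance flags about 1 in 20 such sets, which would be 9.2 here, and the sets are not independent. Of the 30, 22 lie in wild-type replicate 4, with 8 in gastrocnemius, 9 in quadriceps and 5 in tibialis, and in each it was the highest library.

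In wild-type gastrocnemius replicate 4 the members were Dnaja1 at 87.6 CPM, Hsp90aa1 at 192 CPM, Hsp90ab1 at 1802 CPM, Hsp90b1 at 161 CPM, Hspa1a at 53.6 CPM, Hspa1b at 139 CPM, Hspa5 at 319 CPM and Hsph1 at 209.8 CPM. In wild-type quadriceps replicate 4 they were Dnaja1 at 106 CPM, Dnajb1 at 17.5 CPM, Hsp90aa1 at 266 CPM, Hspa1a at 120.0 CPM, Hspa1b at 269.5 CPM, Hspa4l at 42.4 CPM, Hspb1 at 217 CPM, Hspe1 at 63.6 CPM and Hsph1 at 269.5 CPM. In wild-type tibialis replicate 4 they were Dnaja4 at 139 CPM, Hsp90aa1 at 87.0 CPM, Hspa1a at 7.86 CPM, Hspa1b at 18.7 CPM and Hsph1 at 108.5 CPM.

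The other 8 were spread over 7 libraries, each again the highest of its group. Wild-type gastrocnemius replicate 1 stood out in Dnajc15 at 68.5 CPM and in Hspb2 at 42.0 CPM, and replicate 3 in Dnaja4 at 59.0 CPM. Wild-type tibialis replicate 3 stood out in Dnaja3 at 185.5 CPM and replicate 1 in Hspa12a at 12.6 CPM. Among healthy knock-in libraries, quadriceps replicate 1 stood out in Dnaja2 at 238 CPM, quadriceps replicate 3 in Dnajb1 at 49.1 CPM and tibialis replicate 3 in Dnaja4 at 78.4 CPM. In the model without a replicate block, 0 members had a sick change that differed between muscles past the threshold; with a block Cryab and Dnaja4 did.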

How the results depend on the processing

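None of the 65 calls of a member changed sign under any alternative that gave a value. The 65 include the quadriceps calls of Dnajb13, which the filter fixed. With median-of-ratios size factors all 65 stayed past the threshold, with limma-trend 62 and with sample weights 59. With all 32 libraries in 1 fit 48 stayed, without a filter on low counts 41 and with the replicate number as a block 33. With only the 2 groups compared, not run for the wild-type pairs, 25 stayed and 36 did not. Without sick replicate 2 9 of the 62 calls that use it stayed. Among counts of called members, the following moved by more than 1.5 times, and the cause was not tested.

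With sample weights, sick against wild-type gastrocnemius gave 16, sick against healthy gastrocnemius 12, and the wild-type pairs quadriceps and gastrocnemius 2, tibialis and gastrocnemius 5 and tibialis and quadriceps 13. With only the 2 groups compared in the fit, sick against wild type gave 3, 9 and 5 in gastrocnemius, quadriceps and tibialis, and sick against healthy 5 in quadriceps and 0 in tibialis. With all 32 libraries in 1 fit, sick against wild-type gastrocnemius gave 13, sick against healthy 12 in gastrocnemius and 11 in tibialis, wild-type tibialis against gastrocnemius 0 and against quadriceps 5. Without the filter, sick against wild-type quadriceps gave 7, healthy against wild-type tibialis 1, the difference of the sick change between tibialis and gastrocnemius 1, and wild-type tibialis against gastrocnemius 2 and against quadriceps 1.

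With the replicate number as a block, sick against wild type gave 5 in quadriceps and 6 in tibialis, sick against healthy tibialis 2, and wild-type muscles 1, 2 and 12 for quadriceps against gastrocnemius, tibialis against gastrocnemius and tibialis against quadriceps. Where states are compared the samples share only a number. With state and number as a random block, the difference of the sick change was called for 1 member (Cryab) between tibialis and gastrocnemius and for 1 (Dnaja4) between tibialis and quadriceps.

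Leaving out 1 library gave 1 to 15 calls for sick against wild-type gastrocnemius, 1 to 23 for quadriceps and 3 to 15 for tibialis. Sick against healthy gave 2 to 10, 2 to 22 and 0 to 7 in the same order. Differences between muscles gave 0 to 1 for both pairs with tibialis, and wild-type muscles 0 to 1, 0 to 2 and 0 to 7. Chosen after seeing the data, leaving out wild-type replicate 4 of every muscle gave 1, 0 and 7 for the wild-type pairs, and leaving out the quadriceps libraries with high Hspa1a (wild-type replicate 4 and healthy replicates 3 and 4) gave 5 for sick against healthy quadriceps. Searching only 150 bases before the start found a heat shock pair in 11 members instead of 16.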
